A study of Homo sapiens with 6 samples.

Results

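The regions described here are stretches of open chromatin that were called in all 3 vector libraries and in 0 of 3 MyoD-deleted libraries of RH30 cells and that hold no E box of the MyoD type around their summit. They were selected on these calls and on the sequence. Overlapping peaks of the 6 libraries on chromosomes 1 to 22 and X were merged into 105441 regions, 1876 of them (1.78%) were called in the 3 vector libraries alone, and 474 of these 1876 (25.3%) had no E box with central bases GC, CC or GG within 100 bp of the summit of their highest peak. The other 1402 lost regions hold such an E box. Since the calls and the E box chose the 474 regions, both are given here as descriptions and support nothing.

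MyoD is the basic helix-loop-helix factor that drives the skeletal muscle programme. It binds DNA as a dimer with an E protein at E boxes, which read CANNTG, and it prefers the central bases GC, with CC or GG tolerated. Muscle enhancers commonly combine such sites with sites for partners and downstream factors, among them MEF2, MEIS, RUNX and TEAD factors, so a region can depend on MyoD without a strong E box of its own at the centre.

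RH30 is a fusion-positive rhabdomyosarcoma line, a tumour cell line of the muscle lineage. All 6 samples were RH30 cells that had received Cas9. The vector group (3 libraries) carried a scrambled guide and the MyoD-deleted group (3 libraries) carried guides against MyoD. The labels and the study's methods name the line RH30, and other parts of its text name the compared cells RH30-SR, which express an IκBα super-repressor, so whether both groups share that transgene could not be settled. The sources used here do not say whether the edited cells were 1 clone, so an effect of the deletion and a difference between lines cannot be told apart. The labels call the replicates biological but do not say that they came from separate cultures, so the spread between libraries may be partly technical.

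In ATAC-seq a transposase cuts accessible DNA, and cut sites pile up where chromatin is open. The lists held 63068 to 74041 peaks per vector library and 73673 to 80530 per MyoD-deleted library. Read totals were not analysed here. The smallest local background in a list, 2.22 to 3.41 fragments, was highest in vector replicate 1. Promoter regions of the muscle lineage genes MYOD1, MYOG, MYF5, PAX3, DES and CHRNA1 were called in all 6 libraries, and that of MEF2C in the 3 vector libraries only. The MYOD1 promoter peak therefore does not show the edit, and the deletion was not checked by these files.

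The level of a region is given as its fold enrichment, which divides the fragments piled up at a peak's summit by those of its surroundings, and as the percentile rank of that value among the peaks of the same library, from 0 for the lowest to 100 for the highest. The 2 members with the highest mean rank are shown first, because they are the most open regions of the set and show what a lost region without a MyoD-type E box looks like. All bases within 100 bp of the summit are given 5′ to 3′ on the plus strand of hg38, with E boxes of any form in capitals.
NOG, chr17:56347771-56347971: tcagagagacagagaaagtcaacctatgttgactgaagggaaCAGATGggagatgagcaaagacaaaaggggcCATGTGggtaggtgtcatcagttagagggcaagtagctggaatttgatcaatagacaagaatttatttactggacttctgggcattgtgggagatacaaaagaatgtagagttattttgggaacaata
HYDIN, chr16:71255777-71255977: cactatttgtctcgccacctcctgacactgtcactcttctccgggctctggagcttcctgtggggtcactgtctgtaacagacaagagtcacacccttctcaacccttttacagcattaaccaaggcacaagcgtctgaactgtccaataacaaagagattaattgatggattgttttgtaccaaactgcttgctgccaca

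The first window lies in an intron of ANKFN1, 246 kb from the 5′ end of NOG, which encodes the secreted BMP inhibitor noggin. Its region (chr17:56347551-56348527) had fold enrichments of 13.3, 14.7 and 13.9 in the 3 vector libraries, and its rank was 93.0 ± 0.83 (SD, n = 3). It holds 2 E boxes of other forms, CAGATG and CATGTG. The HYDIN window is intergenic and holds no E box of any form, and its fold enrichments were 10.7, 13.8 and 13.8, with a rank of 87.3 ± 7.37. HYDIN encodes a protein of cilia. NOG and HYDIN are named because their 5′ ends lie nearest, and no link between a region and the gene was measured. The HYDIN window is also that of highest mean rank among members with CCAAT, the NF-Y site.

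A further 7 of the 10 members with the highest mean rank were nearest to DEFB115, POT1, TAFA5, SPACA1, HOOK1, BTG1 and RGPD4, at mean ranks of 76.0 down to 68.1. They lay 30.5 kb (HOOK1) to 875 kb (POT1) from the 5′ ends of these genes. The HOOK1 member lies in an intron of HOOK1 itself and was uneven across libraries, at fold enrichments of 12.2, 8.37 and 9.91. The RGPD4 member was steadier, at 10.3, 9.26 and 8.84. Of these 10 regions, 8 were intergenic and 2 intronic. The windows of POT1 and HOOK1 resembled 8 and 26 other open windows, and those of NOG, HYDIN, DEFB115, TAFA5, SPACA1, BTG1 and RGPD4 resembled 0.

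Most members were far weaker than these. Their median fold enrichment was 4.91, 4.65 and 4.55 in vector replicates 1, 2 and 3, against 5.22, 5.27 and 5.09 for lost regions with the E box. The mean of these medians was 4.70 ± 0.186 (SD, n = 3) against 5.19 ± 0.0951, and members were lower in 3 of 3 libraries. On the rank scale the medians were 29.6, 20.02 and 21.2 for members, and the mean of medians was 23.6 ± 5.22 against 29.4 ± 3.58. The −log10 q of a peak, its significance within the library, reached at least 5 in all 3 vector libraries for 237 of 474 members (50%) and for 72.2% of lost regions with the E box. The mean rank over the 3 libraries ran from 0.0302 to 93.0 with a median of 23.7, and it was 50 or more in 46 members. The share of lost regions without the E box was 32.0% at mean ranks of 0 to 20, 26.7% at 20 to 40, 15.4% at 40 to 60 and 14.8% at 60 to 100. The rank order between vector libraries was looser in members (Spearman's rho across regions of 0.641 to 0.647) than in the other lost regions (0.672 to 0.747), where regions are not independent replicates.

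**Figure D1:**
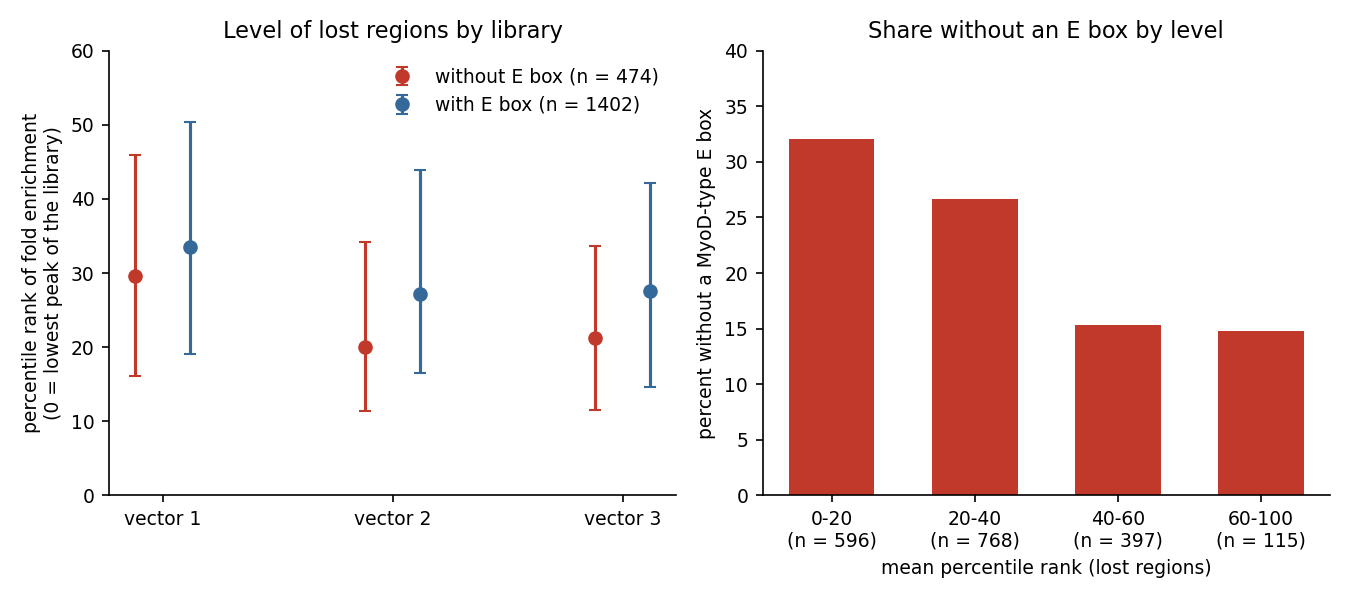
Left, percentile rank of fold enrichment in each vector library for lost regions without and with a MyoD-type E box (points, medians over regions; bars, quartiles over regions). Members sit lower in each library, at medians of 20.02 to 29.6. Right, percent of lost regions without the E box by mean percentile rank, with the number of lost regions under each bar. It falls from 32.0% to 14.8%.

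Regions just outside the rule differed in level by side. Regions called in 3 vector and 1 MyoD-deleted libraries numbered 1571, and 557 of them (35.5%) had no MyoD-type E box, with a median fold enrichment of 4.86 against 4.65 in members. Regions called in 2 vector and 0 MyoD-deleted libraries numbered 2099, and 812 of them (38.7%) had none, with a lower median of 3.855. By sequence, 42 members had a MyoD-type E box that ended 101 to 110 bp from the summit, just beyond the limit, with a median mean rank of 27.8. A further 46 lost regions had their nearest one at 91 to 100 bp and so were not members, with a median of 30.9.

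A MyoD-type E box was often just outside the window. It ended 101 to 200 bp from the summit in 214 of 474 members (45.1%), against 29.0% of 21337 distal regions called in all 6 libraries without the E box in their window (distal means over 2 kb from the 5′ end of a protein-coding gene) and 20.2% of 3859 gained regions without it (called in 3 of 3 MyoD-deleted and 0 of 3 vector libraries). Anywhere in the merged region, 325 members (68.6%) held one, against 67.9% of those distal shared regions, which were wider at a median of 960 bp against 687 bp, and 37.9% of gained regions, at 593 bp. The remaining 149 members (31.4%) held none at all.

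The summit itself was less fixed in members. The distance between the outermost of the 3 vector summits had a median of 108 bp (quartiles 57 and 215), against 66 bp in lost regions with the E box and 57 bp in distal shared regions. The 3 summits fell within 50 bp of each other in 20.5% of members, 37.4% of lost regions with the E box and 45.4% of distal shared regions. When the summit of each vector library was taken in turn, 80, 72 and 106 members did hold a MyoD-type E box within 100 bp. In all, 178 members (37.6%) held one at the summit of at least 1 vector library and 296 (62.4%) at none. For those 178 regions, membership turned on which library had the highest peak.

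**Figure D2:**
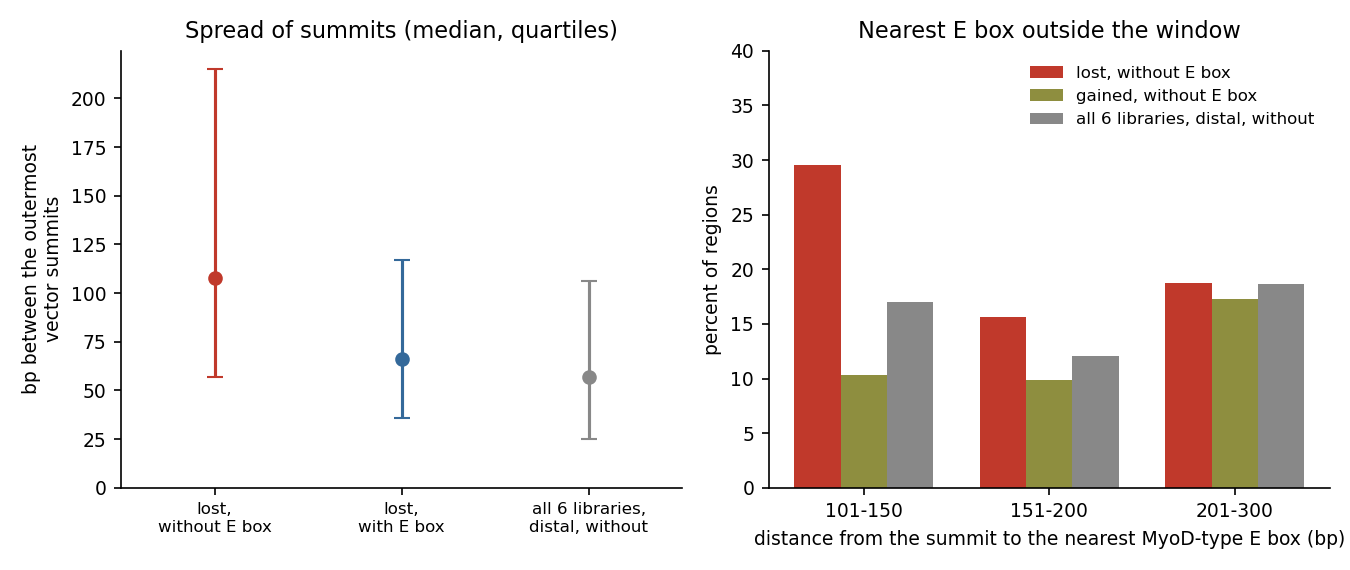
Left, distance between the outermost summits of the 3 vector libraries (points, medians over regions; bars, quartiles), 108 bp in members. Right, percent of regions whose nearest MyoD-type E box ends 101 to 150, 151 to 200 or more than 200 and up to 300 bp from the summit, highest in members in the first bin (29.5%) and close to that of distal shared regions in the last (18.8% and 18.6%).

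Weaker E box forms were common within 100 bp of the summits of members. CAGATG, which reads CATCTG on the other strand and is a form bound by several basic helix-loop-helix factors, was found in 135 members (28.5%), against 25.1% of lost regions with the MyoD-type E box, 19.5% of distal shared regions, 16.9% of gained regions and 17.5% of all regions. At the summits of the 3 vector libraries taken singly its share was 28.7%, 28.3% and 30.0% in members, a mean of 29.0% ± 0.878 (SD, n = 3), against 19.6% ± 0.133 in distal shared regions. The 3 summits lie in the same regions, so the SD of a motif share reflects summit position and not sampling of regions. CAGATG was at 28.3% in members under 45% GC and at 28.7% in the others. CAACTG was in 89 members (18.8%), 17.8% of lost regions with the MyoD-type E box, 11.7% of distal shared, 10.6% of gained and 10.6% of all regions. Per vector summit CAACTG was at 16.7% ± 0.853 in members, 17.4% ± 0.506 in lost regions with the MyoD-type E box and 11.7% ± 0.205 in distal shared regions (SD, n = 3), so members were above the other lost regions in 1 of 3 libraries. Any E box of a form the rule did not use was in 334 members (70.5%), 68.4% of the other lost regions and 57.6% of distal shared regions, which left 140 members (29.5%) with no E box at all in the window. The rule forbids MyoD-type boxes in members and in both comparison sets without them, but not the other forms. Of windows holding CAGATG, 23.7% had it within 25 bp of the summit in members, against 27.7% in distal shared regions. For CAACTG these shares were 16.9% and 28.1%. Some other forms went the other way, such as CAAGTG at 35.6% and 25.1%.

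Among sites of other factors, members and lost regions with the E box stood on the same side of the distal shared regions for most. The AP-1 site TGACTCA, bound by FOS and JUN dimers, was in 55 members (11.6%), 9.34% of lost regions with the E box, 23.2% of distal shared, 27.6% of gained and 17.9% of all regions. Per vector summit it was 11.5% ± 0.853 in members and 22.3% ± 0.0285 in distal shared regions. The MEIS and TGIF site TGACAG was in 92 members (19.4%), 26.6% of lost regions with the E box, 12.3% of distal shared, 11.5% of gained and 14.4% of all regions. The TEAD site CATTCC was in 17.5%, 15.0%, 19.5%, 25.3% and 17.3% of these sets in the same order. The SP and KLF site GGGCGG was in 4.43% of members, 14.3% of distal shared and 14.6% of all regions, and RUNX sites were near 24% in each of the first 4 sets, at 24.7%, 24.0%, 23.6% and 24.8% for members, other lost, distal shared and gained regions. Members were poorer in G and C than the other sets, at 45.5% on average against 49.5% in lost regions with the E box and 51.01% in distal shared regions, and the part of base composition in these shares was not tested beyond the split by GC. All motifs were searched on both strands within 100 bp of the summit.

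**Figure D3:**
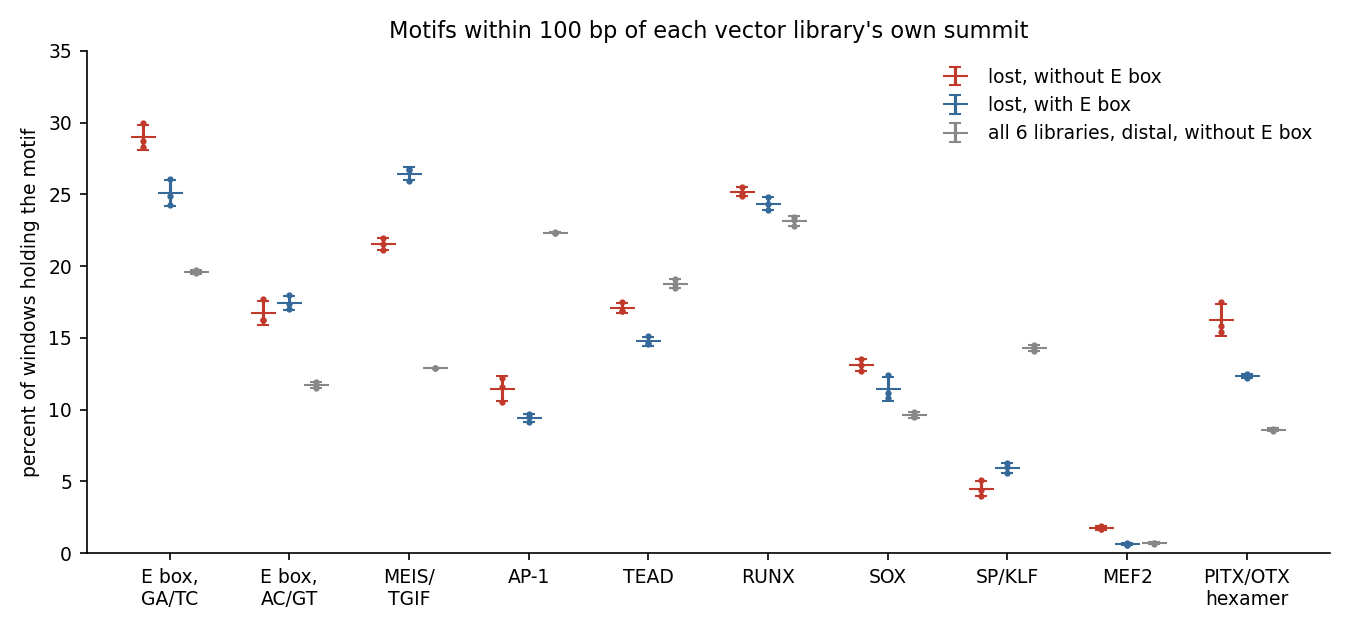
Percent of windows holding each motif within 100 bp of the summit of each vector library. Points are the 3 libraries, and dashes with bars are mean and SD (n = 3) over summits of the same regions. CAGATG (first column) is highest in lost regions without the MyoD-type E box, at a mean of 29.0%, AP-1 is lower in both lost sets than in distal shared regions, and the last column is the hexamer GGATTA, at 16.2%, 12.3% and 8.59%.

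All 2080 hexamers were also ranked by the difference in share between members and distal shared regions, and what follows on them was chosen after these values were seen. The first of them was ACAGAT, followed by the E box form CAGATG. In place 4 stood GGATTA, and at the low end stood pieces of the AP-1 site such as GAGTCA. The hexamer GGATTA reads TAATCC on the other strand and is the core site of PITX and OTX homeodomain factors. It was in 82 members (17.3%), 12.4% of lost regions with the E box, 8.497% of distal shared and 6.19% of gained regions. Per vector summit its share was 17.5%, 15.4% and 15.8% in members, a mean of 16.2% ± 1.12 (SD, n = 3), against 12.3% ± 0.143 and 8.59% ± 0.0972. It was higher in members in both GC classes, at 19.4% against 11.4% of distal shared regions under 45% GC and at 14.8% against 7.14% at 45% GC or over. No factor's binding was measured. The member of highest mean rank that holds it and resembles no other window is intergenic and nearest to TAFA5 (rank 74.3 on average). It is shown on the plus strand of hg38 with the hexamer in capitals.
TAFA5, chr22:48022164-48022364: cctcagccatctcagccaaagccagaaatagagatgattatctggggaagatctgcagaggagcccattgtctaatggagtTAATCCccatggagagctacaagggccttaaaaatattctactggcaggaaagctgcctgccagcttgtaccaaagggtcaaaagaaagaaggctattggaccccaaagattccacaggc

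Part of the set is repeated sequence. Windows were compared with those of all 105441 regions (blastn, E value at most 1e-10 over at least 50 bp), a step added after the data were seen. A similar window existed for 121 members (25.5%), 19.5% of lost regions with the E box, 15.4% of gained and 15.2% of distal shared regions. At least 100 similar windows existed for 44 members (9.28%), 5.92%, 3.58% and 3.81% of the sets in that order. Among members, 49 (10.3%) formed 1 group of windows linked by similarity that lay on 18 chromosomes, and 13 more fell into 6 small groups. A run of 20 bases shared within the large group lies in sequence that reads as part of the LINE-1 family of retrotransposons, recognised by eye since no repeat annotation was used here. The run stood in 6 of the 49 members, in 1.27% of all members, 0.499% of lost regions with the E box and 0.0703% of distal shared regions. The other windows of the group are linked by similarity and were not assigned to a repeat family. The 49 members were neither stronger nor weaker than the rest by more than the libraries differed, at a mean of median ranks of 24.7 ± 9.97 against 23.03 ± 4.25 (SD, n = 3). How the aligner treated reads with several placements is not given in the sources used here, so levels at near-identical copies are uncertain. When the windows were placed back on hg38 with minimap2, 3.38% of members had a mapping quality under 10, against 2.89% of distal shared regions, and 2 of the 49 did.

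Motif shares differed between the repeated windows and the rest. The MEF2 site was in 10 members (2.11%), 0.571% of lost regions with the E box, 0.708% of distal shared, 0.466% of gained and 0.607% of all regions. MEF2 factors act with MyoD at muscle genes. Of these 10 members, 6 were in the large group of similar windows, among them the windows nearest to TGFBR2 and MYOZ2, and a further one, nearest to HOOK1, resembled 26 windows. Without similar windows in any set, MEF2 sites were in 3 of 353 members (0.850%) and 0.685% of distal shared regions. These 3 were nearest to ADGRL2, RPLP1 and DYSF, and the DYSF region, in an intron of the dysferlin gene, had fold enrichments of 2.68, 3.68 and 3.68. CAGATG, in contrast, was at 42.9% in the large group and 26.8% outside it, and without similar windows it was in 27.8% of members and 19.99% of distal shared regions. CAACTG was then at 21.2% and 11.97%, and AP-1 at 11.3% and 23.2%. TEAD was then at 14.7% and 19.5% (25.6% of the 121 members with a similar window). GGATTA, which then ranked first among the hexamers, was at 16.7% and 6.88%. ACAGAT then stood in place 3 and CAGATG in place 11, and ACAGAT was at 42.9% in the large group.

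**Figure D4:**
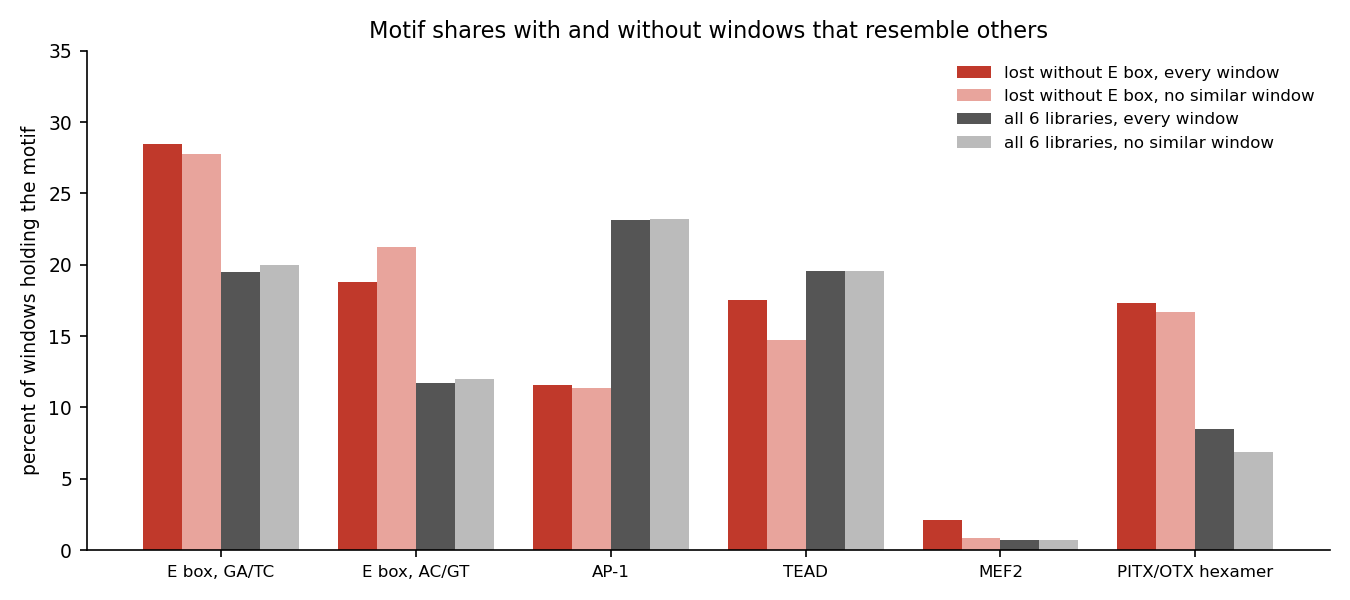
Percent of windows holding each motif in lost regions without the MyoD-type E box (red) and in distal regions called in all 6 libraries (grey), for every window and for windows that resemble no other open window (pale). MEF2 drops from 2.11% to 0.850% in members, and the other motifs keep their order between the sets. The last group is GGATTA.

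Members lay mostly away from genes' starts. Promoters, within 2 kb of the 5′ end of a protein-coding gene, held 17 members (3.59%) against 11.9% of all regions, exons 15, introns 217 (45.8%) and intergenic sequence 225 (47.5%). The median distance to the nearest 5′ end was 74.3 kb, against 70.5 kb for lost regions with the E box, 48.98 kb for gained and 43.5 kb for distal shared regions. The 17 promoter members were weak, with a mean of median ranks of 8.95 ± 3.54 (SD, n = 3) against 23.99 ± 5.89 for the rest. By chromosome, members were between 0.289 (chromosome 18) and 0.691 (chromosome 4) per 100 regions.

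The 474 members had 450 nearest genes, and ARPP21 and RPLP1 were nearest to 3 members each. These were 3 of 27 and 3 of 23 regions, while members were 0.45% of all regions. Genes with 2 members ranged from 2 of 3 regions (NAA11) to 2 of 68 (SORCS1). ARPP21 encodes a cAMP-regulated phosphoprotein, and its 3 members, 76.5 to 192 kb away, had mean ranks of 33.8, 25.9 and 17.1. RPLP1 encodes a ribosomal stalk protein, and its members had mean ranks of 58.7, 32.9 and 12.1, at 47.2 to 299 kb. ARPP21 was also nearest to 4 lost regions with the E box, and RPLP1 to 0.

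Genes of the lists used here differ in how many regions lie nearest to them, so counts of genes are given beside shares of regions, which over all 105441 regions were 0.45% for members and 1.33% for lost regions with the E box. Of 25 myogenic regulators, 0 were the nearest gene of a member and 7 were that of a lost region with the E box, which made up 8 of the 379 regions nearest to these genes (2.11%). Of 43 muscle structure genes with a region, DMD, MYOM2 and MYOZ2 had a member and 7 had a lost region with the E box, at 1.48% and 3.33% of 270 regions. MYOM2 (a myomesin of the sarcomeric M-band) was nearest to 2 of these 4 members. Both lie within CSMD1, 1203 and 1240 kb from the 5′ end of MYOM2. The first of them, the strongest of the 4, had fold enrichments of 7.03, 11.2 and 9.85. The DMD member lies in an intron of the dystrophin gene, 8.55 kb from a 5′ end, and had fold enrichments of 6.35, 4.34 and 6.43. Of 18 fusion and neuromuscular junction genes, NCAM1, a cell adhesion gene, had a member (5.34 ± 1.54 on average, n = 3) and 3 had a lost region with the E box, at 0.606% and 1.82% of 165 regions. Of 21 genes tied to the PAX3-FOXO1 fusion protein, the receptor gene ALK and the secreted factor gene NELL1 had a member and 9 had a lost region with the E box, at 0.766% and 4.60% of 261 regions. The ALK member, in an intron, had fold enrichments of 5.44, 6.20 and 6.69. Of 35 signalling and matrix genes, BMP2, HES1, NOG, NOTCH1 and TGFBR2 had a member, and 5 genes had a lost region with the E box. Members were 6 of the 579 regions of these genes (1.04%) and lost regions with the E box 8 (1.38%, near the 1.33% of all regions). The TGFBR2 member, near the type II TGF-β receptor gene, had fold enrichments of 6.11, 7.20 and 3.85. NOG had a second member, 9.26 kb from its 5′ end, at 4.28, 5.46 and 4.60.

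Of the genes on which the study turns, DNMT3A, a DNA methyltransferase gene, held 1 member among its 14 regions. It lies in an intron (chr2:25303577-25304355), and its fold enrichments were 4.95, 3.30 and 3.75, at ranks of 29.8, 4.72 and 12.2. Its nearest MyoD-type E box ended 114 bp from the summit, and its window holds CAGATG and the TEAD and MEIS sites. The locus held 1 gained region and 0 lost regions with the E box. DNMT1, DNMT3B, CYLD, MYOD1, MYOG and MYF5, with 1 to 8 regions each in the gene or up to 5 kb upstream, held 0 members. They also held 0 lost regions with the E box and 0 gained regions. Members were 0.45% of all regions, so a count of 0 at loci with so few regions says little.

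Lost regions with the E box lay near members more often than near the other sets, though most members had none within 50 kb. A lost region with the E box was within 50 kb of 68 members (14.3%), of 9.56% of lost regions with the E box, of 7.15% of distal shared regions and of 5.55% of gained regions. Within 200 kb these shares were 31.9%, 26.2%, 23.5% and 19.5%. As a share of all regions within 50 kb, which allows for local density, lost regions with the E box made up 3.14% around members, 1.83% around one another, 1.08% around distal shared regions and 0.904% around gained regions. Gained regions made up 3.64% around members and 4.39% around distal shared regions.

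The rule did not use the values of regions called in all 6 libraries, so those near members were compared. Fold enrichment divides by the surroundings, which can hold a close member, so the rank of such a neighbour is not independent of the rule. For each of 47847 such regions the inverse-normal rank of fold enrichment was compared between the groups with limma, and p-values were adjusted over all of them. Of all tested, 4.67% were lower and 4.12% were higher in MyoD-deleted libraries at an adjusted p under 0.05. Of 1121 with their centre within 50 kb of a member, 76 (6.78%) were lower and 65 (5.80%) were higher. On the second measure, the height of the summit over the library's smallest background, centred on the median region, 12.8% of all regions tested were lower and 11.4% higher. By it, 228 neighbours (20.3%) were lower and 110 (9.81%) higher. Around lost regions with the E box the same shares were 19.9% and 9.15%, and around gained regions without it 10.3% and 16.0%. Without a lost region with the E box in reach, 946 neighbours of members were lower by height in 19.3%. The neighbours of members thus leaned lower on the height scale, and about equally both ways on the rank scale.

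The nearest neighbours differed between the measures. Within 10 kb of a member, 24 of 226 (10.6%) were higher by rank and 11 (4.87%) lower, but by height 29 (12.8%) were higher and 45 (19.9%) lower. The rank uses the local background, which includes reads around the summit and can include those of a close member. The height does not use it, and the part of this in the difference was not tested. Between 50 and 200 kb, 16.0% were lower and 11.2% higher by height. The neighbour's own sequence moved with its call: distal neighbours with a MyoD-type E box were lower by height in 37.4% of 417 and distal ones without it in 11.5% of 521, against 26.8% and 7.07% of all tested regions of these kinds.

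**Figure D5:**
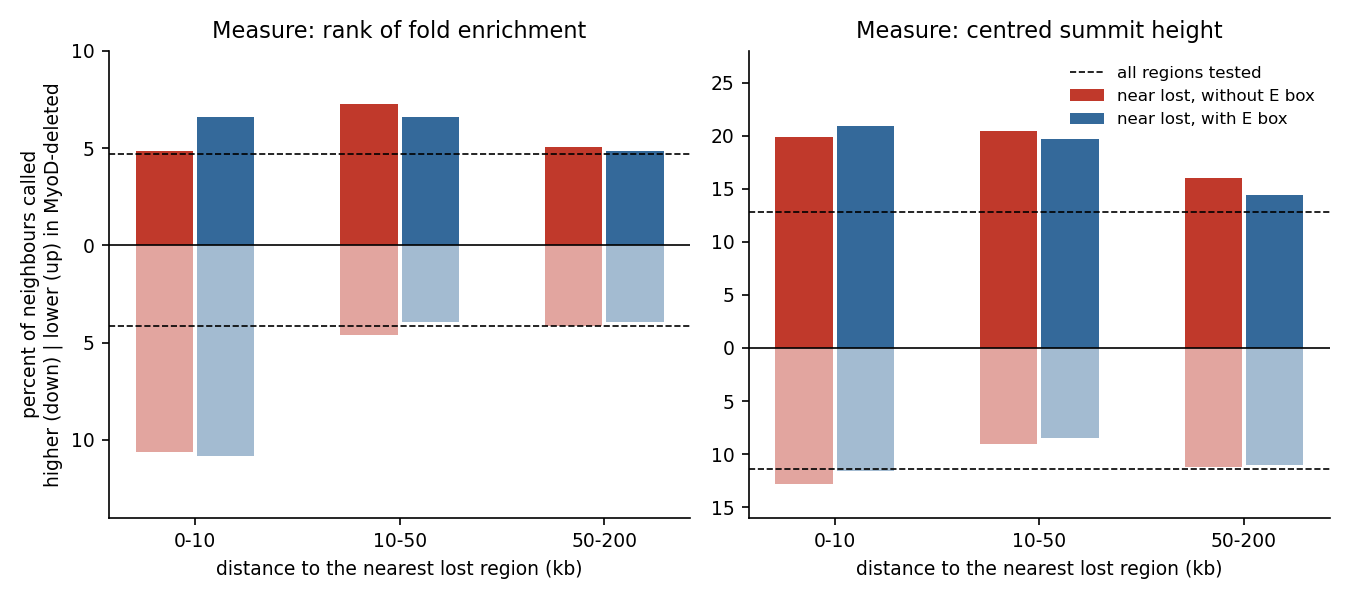
Percent of regions called in all 6 libraries that were lower (upward bars) or higher (pale, downward bars) in MyoD-deleted libraries at an adjusted p under 0.05 in limma, by distance to the nearest lost region without (red) or with (blue) a MyoD-type E box, for the rank of fold enrichment (left) and the centred summit height (right). Dashed lines are the shares over all 47847 regions tested. By height, lower calls within 50 kb stand above the 12.8% line in both sets.

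The neighbours with the smallest p in each direction changed on both measures. A region nearest to AMY1C (chr1:105343115-105344875) lies 1598248 bp from that gene's 5′ end and 7.52 kb from a member. Its ranks were 95.7, 81.8 and 83.1 in vector and 28.2, 29.6 and 15.7 in MyoD-deleted libraries (limma adjusted p = 0.00291). A region 14.2 kb from the 5′ end of GPM6B, a neuronal membrane glycoprotein gene, fell from 74.9 ± 7.08 to 23.1 ± 9.40 (SD, n = 3 each, limma adjusted p = 0.00291). Regions nearest to ENTPD6, ST8SIA4 and CWC22 were lower as well, with rank differences (MyoD-deleted minus vector) of −36.6, −39.5 and −44.97 points (limma adjusted p = 0.00299 each). They lie 24664, 403609 and 352797 bp from the 5′ ends of these genes. GPM6B, ENTPD6, ST8SIA4 and CWC22 neighbours hold a MyoD-type E box and that of AMY1C does not.

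In the other direction, an intronic region nearest to RPS6KA5, a kinase gene, had ranks of 29.1, 25.6 and 27.5 in vector and 86.4, 89.9 and 92.1 in MyoD-deleted libraries (limma adjusted p = 0.000944). Regions nearest to DBX1, RAPGEF4, PYGB and LASP1NB rose by 47.9, 51.8, 34.9 and 40.6 rank points (limma adjusted p of 0.00291 to 0.00928), and none of these 5 holds a MyoD-type E box. The RPS6KA5 and DBX1 regions lie 88951 and 241104 bp from the 5′ ends of these genes, and the others 24058 to 24641 bp. The RAPGEF4 neighbour lies 24.9 kb from a member at the RAPGEF4 promoter, which encodes an exchange factor for RAP proteins and had fold enrichments of 3.17, 3.72 and 4.82 in the vector libraries. The ENTPD6 region, which fell, and the PYGB region, which rose, lie side by side on chromosome 20 (chr20:25219614-25220930 and chr20:25222896-25223921), at 38.0 and 34.8 kb from a member in an intron of PYGB, which encodes a glycogen phosphorylase. That member had fold enrichments of 7.80, 4.12 and 5.11 in the vector libraries. By summit height the PYGB region changed by only 0.348 log2 units (MyoD-deleted minus vector) and the ENTPD6 region by −1.69. The other rising regions named here changed by 1.26 to 2.16.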

How the data were processed

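Per the methods, the authors mapped the reads to hg38 by Rsubread, retained proper pairs and called peaks with MACS2. They deposited 1 peak list for each library, with no pooling. Their test of read counts was not used here. The deposited fold enrichment (a ratio) and the deposited −log10 p and −log10 q belong to the summit within its library, and the deposited score is −log10 q times 10. Offsets and coordinates in the deposited lists gave the other values. Members, gene lists and motif patterns were chosen with earlier results of these data known. Peaks on chromosome Y (470) and the mitochondrion (6) were left out. Whole-number pileups were recovered from fold enrichment and −log10 p for 100% of 436266 peaks, to within 0.05 of the deposited −log10 p (largest error 0.0102). Lists hold no read totals, so depth and counting error are unknown. Genes are from GENCODE version 44 and sequences from hg38. Levels of all regions called in 6 libraries were compared with limma 3.58.1 (lmFit, eBayes with a trend, two-sided, Benjamini-Hochberg) in R 4.3.3, checked on simulated data. Similarity used blastn 2.17.0 and minimap2 2.31. Named were the 10 members of highest mean rank (1 of them, and 1 motif, are not reported here), 2 per gene list, those at the study's 7 genes, genes with 3 members, and the 5 neighbours of smallest p in each direction; other members and the hexamers were named after their values were seen. Alternatives were stricter or equal peak lists, other windows and distances, other measures, a replicate block and leaving out each library.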

Additional observations from a re-analysis of the deposited data

How the results depend on the processing

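The number of lost regions without the MyoD-type E box depended most on the E box window: 937 (49.9% of lost regions) within 50 bp and 149 (7.94%) with the whole region searched. Equal numbers of peaks per library gave 957 and peaks covering at least 50% of a region 754. Leaving out 1 library gave 597 to 807 regions and 27.1% to 29.7% of lost regions, with the highest count without vector replicate 2 (807), then without vector replicate 3 (791) and MyoD-deleted replicate 3 (761). The rule then asks for fewer calls or fewer absences, so counts above 474 follow from the looser rule and do not measure stability. Other settings moved the count and the share by less than 1.5 times. Over 12 alternatives CAGATG ranged from 26.7% to 31.2% of members, AP-1 from 10.4% to 13.2% and TEAD from 14.5% to 21.5%. MEF2 ran from 0.850%, in windows that resemble no other (chosen after seeing the data), to 2.69%. The share moved by at least the SD between vector libraries in 8 of 12 alternatives for CAGATG, 2 for AP-1, 10 for TEAD and 11 for MEF2. That SD reflects summit position only, not sampling of regions. The TEAD range takes in the 19.5% of distal shared regions at the main setting.

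Of neighbours within 50 kb of a member, the share lower in MyoD-deleted libraries was 17.1% by the rank of −log10 p (10.9% of all tested), 20.3% by centred height and 14.9% by height without centring (8.03% of all tested, an alternative chosen after seeing the data). It was above the share of all tested regions in every setting run, but within 10 kb by rank only at 4.87% against 4.67%. These settings reuse the same libraries and are not independent of each other. The share higher was 9.81% by centred height and 20.2% without centring, both under that of all tested (11.4% and 24.7%), and 10.6% within 10 kb by rank. Leaving out 1 library gave 2.94% to 5.71% lower and 1.16% to 6.24% higher (1.73% and 1.11% at the lowest among all tested regions). Without vector replicate 1 the share higher rose, to 6.24% of neighbours and 5.10% of all tested. The share lower was 2.94%, 3.75%, 3.75% and 3.48% without vector replicate 2, vector replicate 3, MyoD-deleted replicate 1 and MyoD-deleted replicate 2, and the share higher was 1.69%, 2.59%, 2.498% and 1.16%, and 3.39% without MyoD-deleted replicate 3. The cause of these shifts was not tested. With a replicate block 5.00% were lower and 3.57% higher, but the numbers did not pair the libraries, since the deviations of same-numbered libraries correlated at −0.0409, −0.0976 and 0.0414.

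Read totals are unknown, so reads under the calling threshold in MyoD-deleted libraries could not be counted.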
